A study of Homo sapiens with 8 samples.

Results

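The 10 genes described here were the insulin-like growth factor binding proteins IGFBP1 to IGFBP7, the metalloprotease PAPPA and the stanniocalcins STC1 and STC2. They were taken by symbol from a table of 26364 genes, and all 10 were found. The list was chosen with results of these same libraries known, so it was in part selected on the members' values with and without temozolomide (TMZ) and in both clones. For that reason they are given as a description, with their spread and without a p for any member.

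RNA was sequenced from LN229, an established human glioblastoma line, in which 2 stable clones were compared. Surv-GFP (clone D6) carried a plasmid for wild-type Survivin fused to GFP, which the study places mainly in the cytoplasm. SurvNESmut-GFP (clone L2) carried the same fusion with leucines of the nuclear export sequence (NES) replaced by alanine, which the study places mainly in the nucleus. Both clones were picked as resistant to G418, the antibiotic that selects for the plasmid, and both also had their own BIRC5, the gene of Survivin. Each clone was left untreated or was exposed for 48 h to 50 µM TMZ, a methylating agent used against glioblastoma, which gave 4 groups of 2 libraries with the letters a and b. Per the study's description, its RNA data combine independent biological replicates with technical duplicates, and the labels do not say which of these the letters stand for. The spread between letters may therefore be technical. Standard errors (SE) of log2 differences rest on 1 edgeR model over all 8 libraries, with information on spread shared across genes. They are thus not the scatter of the compared libraries alone. Each SE was computed as the absolute log2 difference divided by the square root of the F of edgeR's quasi-likelihood test. These SE are therefore approximate. Whether untreated cells received the solvent DMSO was not stated either. Since each variant is 1 clone, a difference between clones cannot be told apart from a difference between the Survivin variants.

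Insulin-like growth factors (IGFs) act through the receptor IGF1R, and most IGF outside cells is held by binding proteins of the IGFBP family, which keep it from the receptor or deliver it. PAPPA is a secreted protease that cuts IGFBP4 and IGFBP5 and so frees IGF near the cell surface, and its relative PAPPA2 cuts IGFBP3 and IGFBP5. STC1 and STC2 are secreted glycoproteins that bind these proteases and block them. Several IGFBPs are also known products of damaged and senescent cells.

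Reads counted on genes numbered 15826923 in the shallowest library and 18861603 in the deepest. Levels are given as CPM, which puts the libraries on 1 scale by their size and edgeR's TMM factors (0.978 to 1.02). Of the glial and glioma markers, SOX2, NES, VIM, CD44, EGFR, OLIG2 and S100B were detected in all 8 libraries, while GFAP reached at most 0.921 CPM. S100B, a glial calcium-binding protein, ranged from 14.3 to 798 CPM, with all 4 Surv-GFP libraries above all 4 of SurvNESmut-GFP and each TMZ group below its untreated group. PTPRC, PECAM1, CDH5, EPCAM and RBFOX3, which mark leukocytes, endothelium, epithelium and neurons, stayed at or below 0.389 CPM, and CD68 lay between 11.9 and 21.4 CPM. CDKN1A, the p53 target that encodes p21, was at 86.6 and 77.3 CPM in untreated Surv-GFP and 908 and 975 CPM with TMZ, and at 117 and 119 CPM against 429 and 492 CPM in SurvNESmut-GFP. BIRC5, whose counts cannot separate the plasmid from the cell's own gene, was at 1113 to 2029 CPM in the Surv-GFP libraries and 253 to 414 CPM in those of SurvNESmut-GFP. The letters of the TMZ group of SurvNESmut-GFP lay furthest apart, with a chi-square of 5.75 per degree of freedom over genes against 2.204 to 2.66 in the other groups, and values resting on them are given letter by letter below.

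The promoters of the 3 members with the largest TMZ difference upward, and of the member with the largest difference downward, are shown because it is the RNA of these genes that moved. Each run holds the 250 bases before the start site from RefSeq on GRCh38.p14, read 5′ to 3′ on the gene's strand. Capitals mark the GC box, the TATA core and the CCAAT box on either strand, each as it reads on the printed strand, and the motif search spells them out.
IGFBP3 (chr7:45921273-45921522, minus strand): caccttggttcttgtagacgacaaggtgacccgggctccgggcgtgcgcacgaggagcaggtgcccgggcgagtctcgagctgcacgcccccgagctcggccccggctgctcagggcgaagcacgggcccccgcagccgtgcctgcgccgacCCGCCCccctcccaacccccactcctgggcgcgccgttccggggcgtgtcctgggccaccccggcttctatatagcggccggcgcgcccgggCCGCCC
PAPPA (chr9:116153541-116153790, plus strand): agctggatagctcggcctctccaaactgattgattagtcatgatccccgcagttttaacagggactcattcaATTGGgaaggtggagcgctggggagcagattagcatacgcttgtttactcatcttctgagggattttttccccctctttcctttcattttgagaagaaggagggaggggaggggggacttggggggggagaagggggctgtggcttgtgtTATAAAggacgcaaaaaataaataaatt
STC2 (chr5:173328415-173328664, minus strand): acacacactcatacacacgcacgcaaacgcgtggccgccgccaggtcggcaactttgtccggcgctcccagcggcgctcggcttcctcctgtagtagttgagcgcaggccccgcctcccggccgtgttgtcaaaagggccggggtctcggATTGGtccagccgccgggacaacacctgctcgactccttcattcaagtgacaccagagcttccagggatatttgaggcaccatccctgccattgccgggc
IGFBP5 (chr2:216695550-216695799, minus strand): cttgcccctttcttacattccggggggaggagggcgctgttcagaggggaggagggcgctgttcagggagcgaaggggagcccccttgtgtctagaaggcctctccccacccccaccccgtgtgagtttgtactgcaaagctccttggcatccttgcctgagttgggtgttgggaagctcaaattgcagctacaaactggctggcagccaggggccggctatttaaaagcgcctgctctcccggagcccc

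These promoters differ in base composition. IGFBP3's window holds 76% G and C and 2 GC boxes, whereas that of PAPPA holds 48% with a TATA core 28 bases before the start and a CCAAT box. STC2's window holds 63.6% G and C and a CCAAT box, IGFBP5's 61.2% and none of these 3 motifs as spelled. The TATA core was searched as TATAAA alone, so other spellings of it were not counted in any window. The median over 35116 promoters of the same length was 58%, with quartiles at 46.4% and 68%.

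Searched were 9 motifs on both strands in the windows of the 7 members that RefSeq's table held, 9 windows in all since IGFBP2 has several; IGFBP1, IGFBP7 and STC1 were not matched. GGGCGG stood in 5 of the 9 windows (IGFBP2, IGFBP3, IGFBP4 and IGFBP6) and in 42.6% of all promoters. CCAAT stood in 3 (IGFBP2, PAPPA and STC2) and in 32% of all, and TATAAA in 2 (IGFBP4 and PAPPA) and in 10.7% of all. The AP-1 site TGANTCA (6.57% of all promoters), the ATF4-C/EBP core TTGCATCA (0.772%), the hypoxia core ACGTG (18.5%), the insulin response core CAAAACAA (1.46%), the E2F site TTTCGCGC (0.439%) and the E-box CACGTG (6.34%), which contains ACGTG, were in none of the 9. A match in these letters is a description of the window and not a binding site.

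Which of the binding proteins, the protease and its inhibitors differed with TMZ was compared first within Surv-GFP. IGFBP3, PAPPA and STC2 were each higher by over an order of magnitude, IGFBP7 was higher by 1.94-fold, and IGFBP5, IGFBP4 and STC1 were lower. Of the 10 members 9 passed the filter on low counts, and of these 5 were higher and 3 lower at edgeR's Benjamini-Hochberg adjusted p of 0.05, where 30.1% of all 14201 tested genes were higher and 28.9% lower. The median log2 difference of the 9 was 0.15, and that of all tested genes 0. In SurvNESmut-GFP, 5 of the 9 were higher and 2 lower, with 18.6% of all tested genes higher and 19.1% lower and a median of 0.21 for the 9. Without 1 library these counts were 4 to 5 and 2 to 3 in Surv-GFP. These contrasts were known when the list was made, so nothing is read from the counts.

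**Figure D1:**
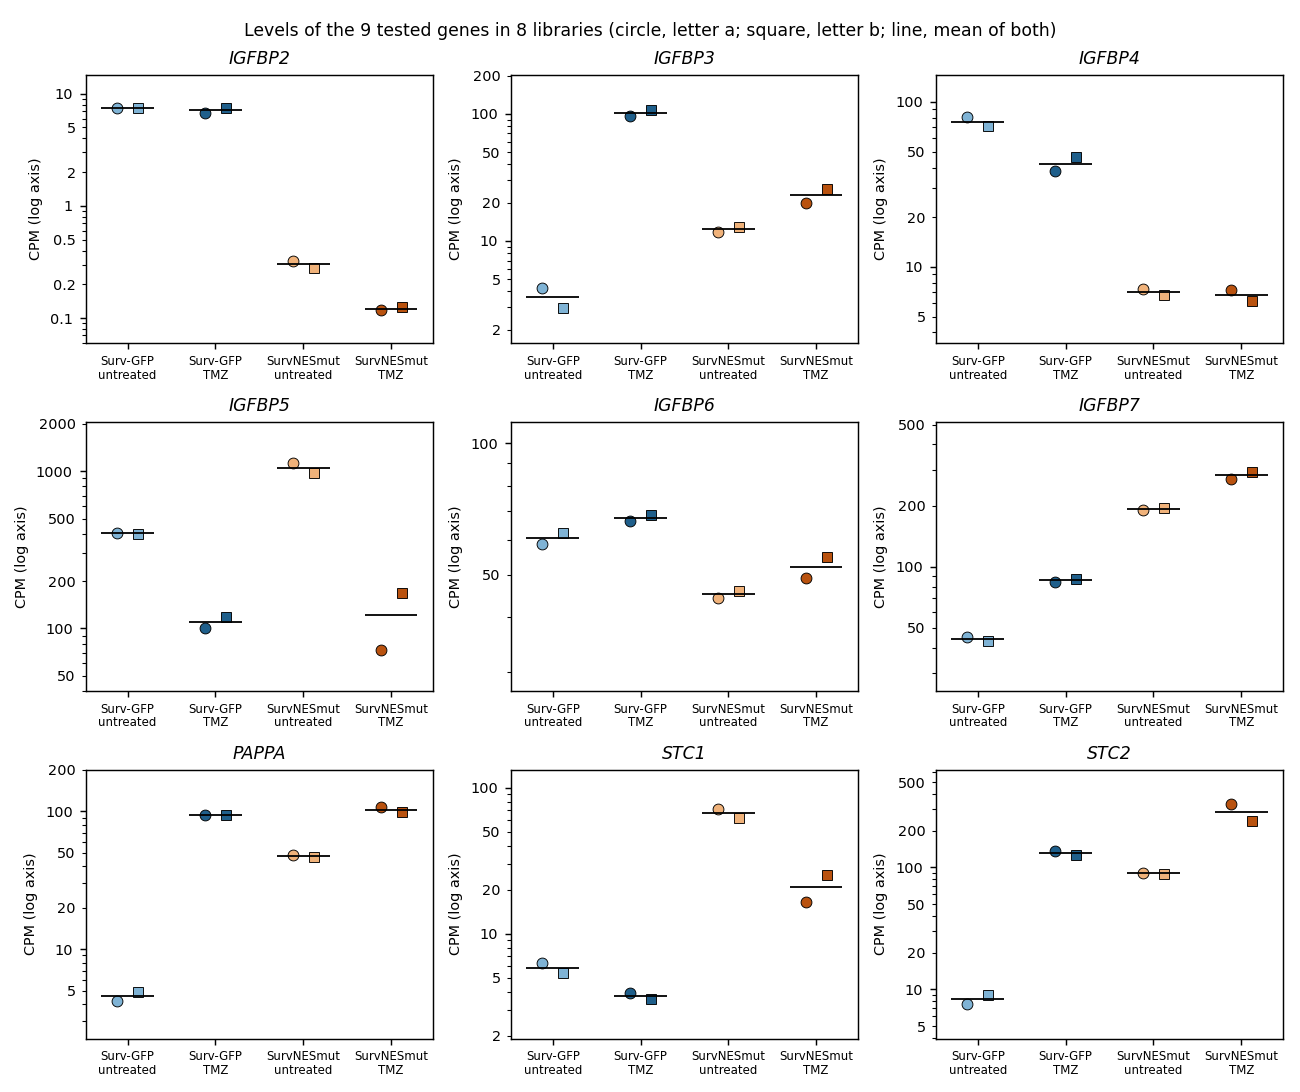
CPM of the 9 members that passed the count filter in each of the 8 libraries, on log axes of their own; circles are letter a, squares letter b and lines the mean of both. IGFBP3, PAPPA and STC2 lie higher with TMZ in both clones, IGFBP5 and STC1 lower in both, and IGFBP2 and IGFBP4 follow the clone.

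PAPPA, the protease, stood at 4.23 and 4.86 CPM in untreated Surv-GFP and at 93.3 and 93.4 CPM with TMZ. In SurvNESmut-GFP it was at 48.3 and 46.3 CPM untreated and at 107 and 98.9 CPM with TMZ. The TMZ groups of both clones thus came to similar levels from untreated levels that differed, and no untreated library overlapped a TMZ library of its clone. The difference with TMZ was 4.36 ± 0.09 (SE, 2 libraries per group) on the log2 scale in Surv-GFP, 20.5-fold, and 1.12 ± 0.06 in SurvNESmut-GFP, 2.17-fold. Between the untreated clones PAPPA was 10.4-fold higher in SurvNESmut-GFP (3.38 ± 0.09 on the log2 scale), and between the TMZ groups 1.10-fold higher (0.14 ± 0.05). That last difference was 0.05 on the log2 scale without SurvNESmut TMZ a.

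STC2, which blocks PAPPA by a covalent bond, was at 7.64 and 9.05 CPM in untreated Surv-GFP and at 136 and 127 CPM with TMZ. In SurvNESmut-GFP its levels were 90.0 and 88.3 CPM untreated and 328 and 240 CPM with TMZ. All 4 groups were separate, in the same order as for PAPPA but with the SurvNESmut TMZ group well above the others. The TMZ difference was 3.98 ± 0.14 on the log2 scale in Surv-GFP, 15.8-fold, and 1.67 ± 0.10 in SurvNESmut-GFP, 3.18-fold.

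STC1, which binds PAPPA tightly without a covalent bond, went the other way. It was at 6.29 and 5.41 CPM in untreated Surv-GFP and 3.90 and 3.56 CPM with TMZ, and at 71.5 and 62.3 CPM in untreated SurvNESmut-GFP against 16.6 and 25.2 CPM with TMZ. The groups did not overlap, and both SurvNESmut groups were above both Surv-GFP groups. For Surv-GFP the TMZ difference was -0.65 ± 0.24 on the log2 scale, not past the threshold with a robust prior or without Surv-GFP untreated a (-0.53), TMZ a (-0.71) or TMZ b (-0.61). For SurvNESmut-GFP it was -1.69 ± 0.12, and the untreated clones differed 11.4-fold (3.51 ± 0.15). The 2 stanniocalcins thus differed with TMZ in opposite directions in both clones.

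Levels of different genes were compared per length, as CPM per kb of all exons of the gene in GENCODE 29. The ratio of STC2 to PAPPA per kb was 3.41 and 3.52 in untreated Surv-GFP, 2.76 and 2.57 in its TMZ libraries, 3.52 and 3.60 in untreated SurvNESmut-GFP, and 5.81 and 4.58 with TMZ there. It therefore stayed within 2.57 and 5.81 over all 8 libraries while PAPPA itself spanned from 4.23 to 107 CPM. The ratio of STC1 to PAPPA per kb was 4.15 and 3.11 in untreated Surv-GFP and 0.117 and 0.106 with TMZ. In SurvNESmut-GFP it was 4.13 and 3.75 untreated and 0.435 and 0.711 with TMZ. STC1 and STC2 were accordingly near each other per kb in all untreated libraries, with a ratio of STC2 to STC1 of 0.823 to 1.13, and STC2 was in excess in every TMZ library, at 23.6 and 24.2 times STC1 in Surv-GFP and 13.4 and 6.44 times in SurvNESmut-GFP. Protein was not measured here.

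**Figure D2:**
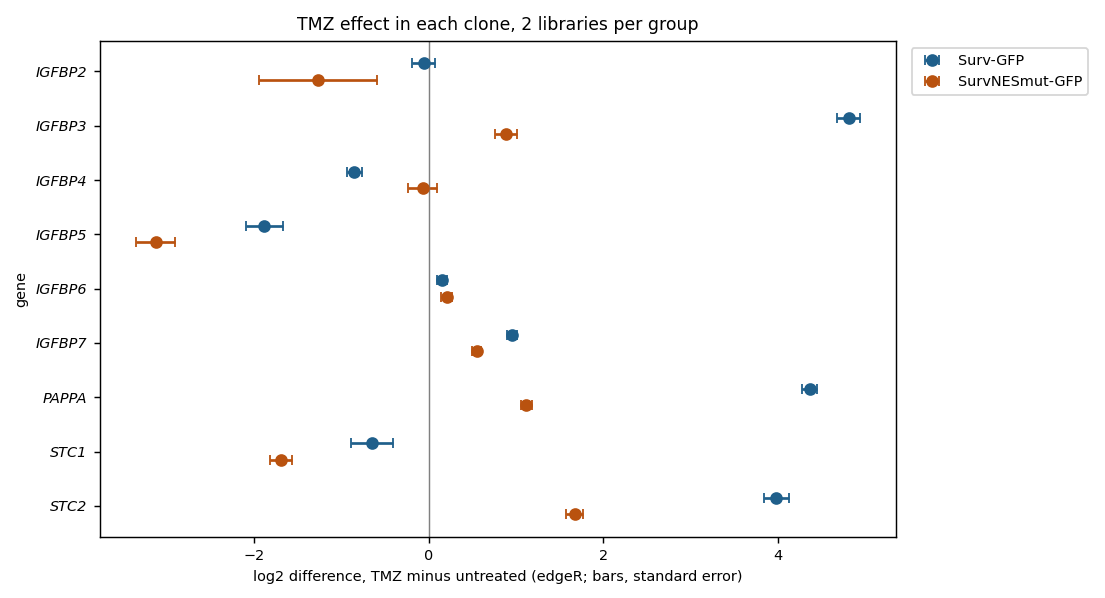
Difference between TMZ and untreated libraries on the log2 scale for 9 members in Surv-GFP and SurvNESmut-GFP. Points are edgeR estimates and bars are standard errors derived from the F of its test, with 2 libraries per group. IGFBP3, PAPPA and STC2 lie near 4 to 5 in Surv-GFP and between 0.89 and 1.67 in SurvNESmut-GFP, and IGFBP5 is furthest below 0 in both clones.

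Among the binding proteins, IGFBP5, a matrix-binding IGFBP and a substrate of both PAPPA and PAPPA2, had the most counts over the 8 libraries. It was at 407 and 396 CPM in untreated Surv-GFP and 101 and 118 CPM with TMZ, and at 1120 and 978 CPM in untreated SurvNESmut-GFP and 73.2 and 169 CPM with TMZ. Untreated libraries of each clone were above its TMZ libraries, but the 2 letters of the SurvNESmut TMZ group lay on either side of the Surv-GFP TMZ group. TMZ libraries of Surv-GFP differed from untreated ones by -1.88 ± 0.22 on the log2 scale, those of SurvNESmut-GFP by -3.12 ± 0.22. Without SurvNESmut TMZ b the second became -3.84, and without SurvNESmut TMZ a it was -2.64. The difference between the TMZ groups, 0.14 ± 0.22, was 0.59 without SurvNESmut TMZ a and -0.61 without SurvNESmut TMZ b, so its direction rested on which letter was kept.

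IGFBP4, the other main substrate of PAPPA, followed the clone. Its levels were 80.5 and 71.2 CPM in untreated Surv-GFP and 37.9 and 46.3 CPM with TMZ, against 7.37 and 6.72 CPM in untreated SurvNESmut-GFP and 7.19 and 6.24 CPM with TMZ. TMZ and untreated libraries were separate in Surv-GFP, at -0.85 ± 0.09 on the log2 scale, and overlapped in SurvNESmut-GFP, at -0.07 ± 0.17. Untreated SurvNESmut-GFP was 10.8-fold below untreated Surv-GFP.

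IGFBP3, the main IGF carrier of serum and a known p53 target, had the largest TMZ difference of the members in Surv-GFP. It was at 4.23 and 2.98 CPM untreated and 95.9 and 106 CPM with TMZ, a 28.0-fold difference (4.81 ± 0.13 on the log2 scale). In SurvNESmut-GFP its levels were 11.7 and 12.9 CPM untreated and 19.99 and 25.7 CPM with TMZ, a 1.85-fold difference (0.89 ± 0.13). The order of the clones was thus turned around, since untreated SurvNESmut-GFP was 3.40-fold above untreated Surv-GFP and the TMZ group 4.44-fold below its counterpart, with no overlap in either comparison.

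IGFBP7, which binds IGFs weakly, was at 45.4 and 43.1 CPM in untreated Surv-GFP and 84.6 and 87.1 CPM with TMZ, and at 190 and 195 CPM in untreated SurvNESmut-GFP and 271 and 293 CPM with TMZ. All 4 groups were separate. With TMZ it was higher by 0.96 ± 0.06 on the log2 scale for Surv-GFP, and by 0.55 ± 0.05 for SurvNESmut-GFP. IGFBP7 and PAPPA each have an antisense gene, and the sources used here do not say whether counting used the strand; IGFBP7-AS1 reached at most 0.818 CPM and PAPPA-AS1 0.409 CPM.

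IGFBP6, which prefers IGF2, moved least. Its lowest library was untreated SurvNESmut a at 44.3 CPM and its highest Surv-GFP TMZ b at 68.4 CPM, and the letters of neighbouring groups did not overlap. TMZ libraries differed from untreated ones by 0.15 ± 0.06 on the log2 scale for Surv-GFP and 0.21 ± 0.07 for SurvNESmut-GFP. Both fell short of the adjusted threshold in DESeq2. In Surv-GFP this also held with DESeq2's scaling, library size alone, no filter, or at least 1 CPM in 2 libraries. Without 1 library the differences ranged from 0.10 to 0.20 in Surv-GFP and from 0.13 to 0.28 in SurvNESmut-GFP.

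IGFBP2, a binding protein often high in glioma, was found mainly in Surv-GFP. Surv-GFP had 7.42 and 7.45 CPM untreated and 6.79 and 7.52 CPM with TMZ, and these groups overlapped. SurvNESmut-GFP had only 6 and 5 counts untreated and 2 and 2 counts with TMZ. The ratio of Surv-GFP to SurvNESmut-GFP was 24.6 untreated, with a 95% exact interval from 13.5 to 49.9, and 58.9 with TMZ, from 22.7 to 218, which covers counting error only. In SurvNESmut-GFP the ratio of untreated to TMZ was 2.49, from 0.737 to 10.7, so a change there was not detectable at this depth.

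IGFBP1, an IGFBP made mainly in liver, was close to the limit of detection. It had 0 and 0 counts in untreated Surv-GFP, 4 and 6 with TMZ, 2 and 2 in untreated SurvNESmut-GFP and 3 and 0 with TMZ, and it did not pass the filter. Set against a floor of 3 counts over the untreated group, the 10 counts of the Surv-GFP TMZ group gave a ratio of 3.38, and against the 0 counts found there the exact 95% lower limit of the ratio was 2.27.

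Per length, the make-up of the family changed with TMZ in each clone. In untreated Surv-GFP, IGFBP5 (62.3 ± 1.14 CPM per kb, SD, n = 2), IGFBP6 (45.0 ± 1.90), IGFBP4 (34.5 ± 2.98) and IGFBP7 (22.9 ± 0.824) led. With TMZ the order was IGFBP6 (50.1 ± 1.08), IGFBP7 (44.5 ± 0.927), IGFBP3 (22.1 ± 1.64), IGFBP4 (19.1 ± 2.70) and IGFBP5 (16.97 ± 1.91), in which neighbours among the last 3 overlap. With the longest coding transcript as the length, the first 2 exchange places. IGFBP3 is then at 42.0 ± 3.10 CPM per kb and no longer overlaps IGFBP4. In SurvNESmut-GFP, IGFBP5 led without TMZ, at 163 ± 15.5 CPM per kb, ahead of IGFBP7 at 99.8 ± 1.87. With TMZ, IGFBP7 led at 146 ± 7.84 CPM per kb, and IGFBP5 was at 18.8 ± 10.5.

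As a share of all 7 IGFBPs per kb, IGFBP5 went from 37.3 ± 0.0391% to 11.0 ± 0.639% in Surv-GFP and from 53.8 ± 2.85% to 8.66 ± 4.06% in SurvNESmut-GFP. IGFBP7 went from 13.7 ± 0.228% to 28.8 ± 0.971% and from 33.1 ± 2.03% to 69.2 ± 3.40%, respectively. IGFBP3 reached 14.3 ± 0.278% in the Surv-GFP TMZ group and 2.35 ± 0.177% in that of SurvNESmut-GFP. By the longest coding transcript these IGFBP3 shares were 20.8 ± 0.433% and 3.44 ± 0.285%. The sum of the family moved less, from 169 and 165 CPM per kb to 148 and 160 in Surv-GFP, and from 311 and 293 to 196 and 227 in SurvNESmut-GFP. In bulk RNA, fewer cells with a transcript and less of it per cell cannot be told apart.

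**Figure D3:**
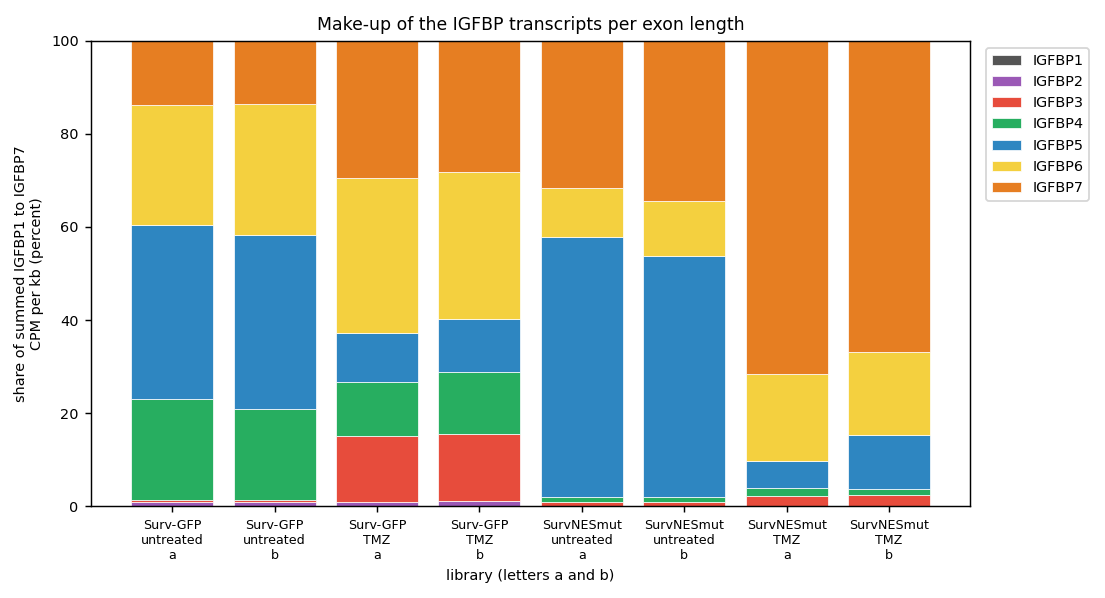
Share of each IGFBP in the summed CPM per kb of exons of IGFBP1 to IGFBP7, in percent, for each of the 8 libraries. IGFBP5 takes the largest part of untreated libraries, IGFBP7 that of SurvNESmut TMZ libraries, and IGFBP3 is visible mainly in Surv-GFP TMZ libraries.

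The PAPPA system was set beside its substrate in the same way. IGFBP5 per kb was 173 and 147 times PAPPA in untreated Surv-GFP and 1.94 and 2.27 times with TMZ. In SurvNESmut-GFP it was 41.7 and 37.9 times PAPPA untreated and 1.24 and 3.06 times with TMZ. The ratio of IGFBP3 to IGFBP5 per kb was 0.0106 to 0.0186 in all 4 untreated libraries, 1.34 and 1.27 in the Surv-GFP TMZ libraries and 0.385 and 0.215 in those of SurvNESmut-GFP. Within each clone, TMZ and untreated libraries did not overlap in either ratio.

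The difference between the TMZ effects of the clones was negative for 6 of the 9 tested members and positive for 1 at an adjusted p of 0.05, with 20.2% of all tested genes lower and 16.6% higher. IGFBP3 (-3.92 ± 0.20 on the log2 scale), PAPPA (-3.24 ± 0.11) and STC2 (-2.31 ± 0.18) had a smaller increase in SurvNESmut-GFP. IGFBP5 (-1.24 ± 0.30) and STC1 (-1.04 ± 0.28) had a larger decrease there, and IGFBP4 (0.78 ± 0.19) a smaller one. IGFBP7 (-0.41 ± 0.08) was higher with TMZ in both clones, by less in SurvNESmut-GFP. IGFBP6 (0.05 ± 0.09) and IGFBP2 (-1.21 ± 0.69) were not past the threshold. With edgeR's robust prior IGFBP5 and STC1 were not past it either, which left 4 members with a negative difference, and in DESeq2 IGFBP5 was not, which left 5. The value of IGFBP5 was -1.96 without SurvNESmut TMZ b and -0.76 without SurvNESmut TMZ a, and STC1 was not past the threshold without Surv-GFP TMZ a (-0.97). For PAPPA, STC2 and IGFBP3 the smaller increase started from a higher untreated level. For IGFBP3 it also ended at a lower TMZ level.

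Without TMZ, 6 of the 9 tested members were higher in SurvNESmut-GFP and 3 lower, where 34.7% of all tested genes were higher and 29.4% lower. STC1 (11.4-fold), STC2 (10.7-fold), PAPPA (10.4-fold), IGFBP7 (4.35-fold), IGFBP3 (3.40-fold) and IGFBP5 (2.61-fold) were higher. IGFBP2, IGFBP4 and IGFBP6 (1.34-fold) were lower. With TMZ, 4 of the 9 were higher in SurvNESmut-GFP and 4 lower, where 34.5% of all tested genes were higher and 34.7% lower. STC1 (5.56-fold), IGFBP7 (3.29-fold) and STC2 (2.15-fold) stayed apart by more than their spread, while IGFBP2, IGFBP3, IGFBP4 and IGFBP6 were lower. PAPPA was higher by only 1.10-fold, and its call was lost in DESeq2, with no filter, and with only the compared groups fitted. These comparisons share libraries with those of TMZ, so their values are set side by side and not correlated.

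The genes with the profile most like that of the 3 most variable members were found by the root mean square distance of centred log2 CPM over the 8 libraries, among all 14201 tested genes. STC2, whose group means spanned 5.06 on the log2 scale, was closest to the potassium channel gene KCNJ2 (0.319), to PAPPA (0.352) and to the serpin gene SERPINB5 (0.362). PAPPA, the protease that STC2 blocks, stood second of all tested genes, and behind LINC01291 as well with a prior count of 0.5. Both genes were put on the list with results of these libraries known, so this rank is a description. IGFBP3, with a span of 4.79, was closest to CXCL8 (0.294), the gene of interleukin-8, then to PTHLH (0.435), the gene of parathyroid hormone-related protein, and LURAP1L (0.449). CXCL8 stood at 12.0 and 9.66 CPM in untreated Surv-GFP, 305 and 286 CPM with TMZ, 55.3 and 58.5 CPM in untreated SurvNESmut-GFP and 86.3 and 96.6 CPM with TMZ there. IGFBP2, with a span of 5.01, was closest to JAZF1 (0.244), S100A1 (0.319) and HS6ST3 (0.349). HS6ST3 had 0 counts in all 4 SurvNESmut libraries, and with a prior count of 0.5 the nearest genes of IGFBP2 became S100A1, ZNF676 and QPRT, so its neighbours depended on how low counts were treated. Profiles over 4 group levels with shared libraries are easily alike, and no test goes with these distances.

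**Figure D4:**
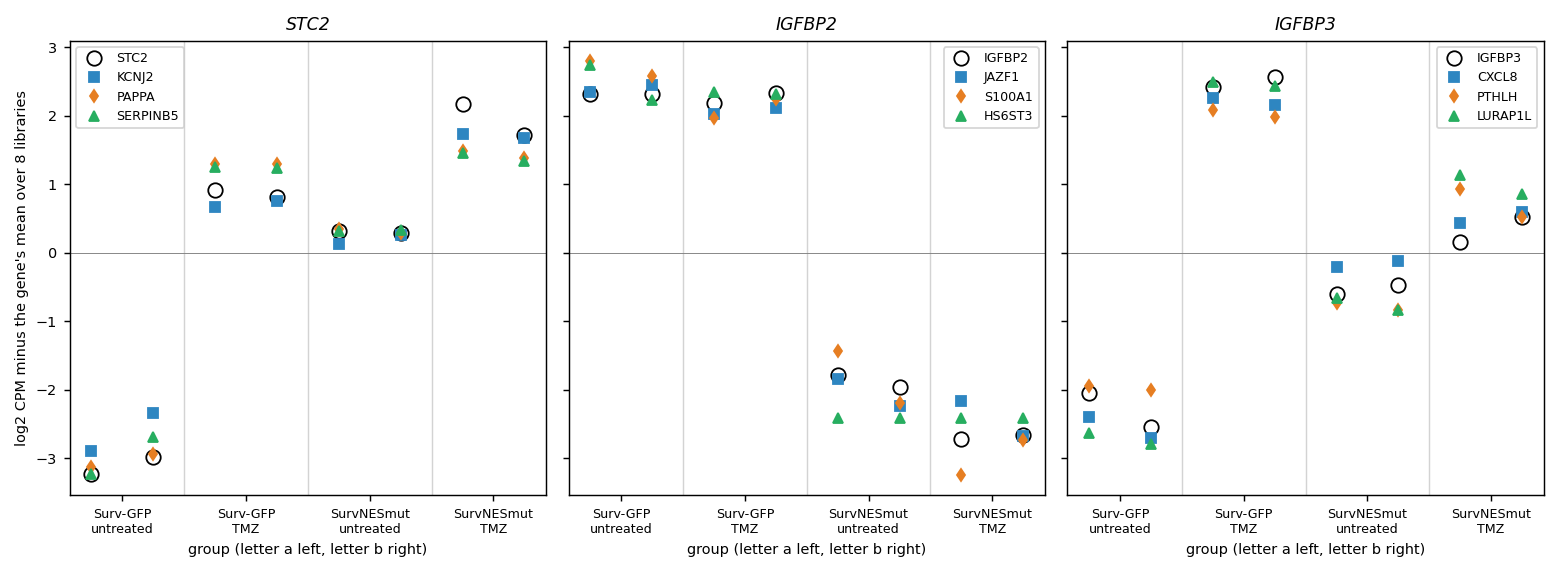
Centred log2 CPM in 8 libraries of STC2, IGFBP2 and IGFBP3 (open circles) and of the 3 tested genes nearest to each (filled symbols). The STC2 panel shows PAPPA beside it in all 4 groups, with STC2 above PAPPA in the SurvNESmut TMZ libraries.

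The other genes of the IGF axis were taken from a list of 52 symbols in 7 roles, of which 36 passed the filter. This list, too, was made with results of these libraries known, and the genes named below are those with the largest TMZ differences past the threshold, so that their adjusted p-values are no independent evidence. With TMZ, 14 were higher and 10 lower in Surv-GFP, and 10 higher and 10 lower in SurvNESmut-GFP, at edgeR's adjusted p of 0.05, beside the shares of all tested genes given above. The median log2 difference of the 36 was 0.01 and -0.01. The difference of the TMZ effects was negative for 11 and positive for 6. Without SurvNESmut untreated a the count lower in SurvNESmut-GFP was 6, and without Surv-GFP TMZ b the count of negative differences was 6.

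Of the ligands, IGF1 and IGF2 had 0 counts in all 8 libraries, which allows up to 3 counts in each. IGF2 shares exons on the same strand with INS-IGF2 in GENCODE 29, and that gene was at 0 as well; the sources used here do not say how reads in shared exons were counted.

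Of the receptors, IGF1R was at 147 and 140 CPM in untreated Surv-GFP, 130 and 140 CPM with TMZ, 185 and 170 CPM in untreated SurvNESmut-GFP and 137 and 136 CPM with TMZ there. It fell with TMZ in SurvNESmut-GFP (-0.38 ± 0.06 on the log2 scale, edgeR adjusted p = 5.09e-05) and not past the threshold in Surv-GFP (-0.09 ± 0.06, adjusted p = 0.197). The difference between these effects was -0.29 ± 0.08 (adjusted p = 0.00811), and its adjusted p was 0.0917 without Surv-GFP TMZ b and 0.0561 without SurvNESmut untreated a. INSR, the insulin receptor, fell in both clones (-0.58 ± 0.09 and -0.42 ± 0.08, edgeR adjusted p = 2.2e-05 and 0.00041). IGF2R, which takes IGF2 to the lysosome, rose in both (0.35 ± 0.06 and 0.22 ± 0.05, edgeR adjusted p = 3.87e-05 and 0.00392), the latter at 0.0752 without SurvNESmut untreated b. INSRR was not tested.

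Of 6 adaptor and feedback genes 4 were tested, and all 4 rose with TMZ in Surv-GFP, with a median log2 difference of 0.66, while 2 rose and none fell in SurvNESmut-GFP, where the shares of all tested genes that were higher were 30.1% and 18.6%. Of these calls, that of the adaptor SHC1 in Surv-GFP (0.15 ± 0.05, edgeR adjusted p = 0.0179) was lost in DESeq2, with a filter of at least 1 CPM in 2 libraries, and without Surv-GFP untreated b (0.138) or TMZ b (0.272). GRB10, an adaptor that damps insulin and IGF receptors, was at 146 and 155 CPM in untreated Surv-GFP and 358 and 329 CPM with TMZ, against 183 and 178 CPM and 184 and 172 CPM in SurvNESmut-GFP. It rose in Surv-GFP (1.19 ± 0.06 on the log2 scale, edgeR adjusted p = 2.6e-11) and was at -0.02 ± 0.06 in SurvNESmut-GFP, and the difference was -1.21 ± 0.08 (adjusted p = 1.01e-08). IRS2, which carries the receptor signal to PI3K, rose more in Surv-GFP (0.94 ± 0.06) than in SurvNESmut-GFP (0.27 ± 0.06), a difference of -0.68 ± 0.08 (edgeR adjusted p = 1.14e-05); its rise in SurvNESmut-GFP had an adjusted p of 0.06 without SurvNESmut untreated a. IRS1 rose in both clones (0.38 ± 0.08 and 0.50 ± 0.07), and their difference was not past the threshold (edgeR adjusted p = 0.418).

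The PI3K, AKT, FOXO and TOR genes were tested in full, and in each clone 4 of the 17 rose and 6 fell, where 30.1% of all tested genes were higher and 28.9% lower in Surv-GFP, and 18.6% and 19.1% in SurvNESmut-GFP. EIF4EBP1, the translation repressor that TOR inactivates, rose in both (0.996 ± 0.054 and 0.744 ± 0.054 on the log2 scale, edgeR adjusted p = 1.53e-10 and 2.11e-08). PIK3R1, the regulatory subunit of PI3K, fell in Surv-GFP (-0.71 ± 0.07) and was at 0.01 ± 0.07 in SurvNESmut-GFP, a difference of 0.72 ± 0.10 (edgeR adjusted p = 2.64e-05). PIK3CA, its catalytic partner, fell in both (-0.42 ± 0.07 and -0.30 ± 0.08, edgeR adjusted p = 0.000114 and 0.00603), the latter at 0.1 without SurvNESmut untreated a. FOXO1 fell in SurvNESmut-GFP (-0.63 ± 0.12, edgeR adjusted p = 0.00052) and was at -0.21 ± 0.10 in Surv-GFP (edgeR adjusted p = 0.077). The Surv-GFP value passed the threshold in some alternatives, among them no filter and a filter of at least 1 CPM in 2 libraries. The difference between these FOXO1 effects was -0.42 ± 0.15 (edgeR adjusted p = 0.0439). It was not past the threshold in DESeq2, with other scalings, or with a filter of at least 1 CPM in 2 libraries. Without 1 library this difference ranged from -0.55 to -0.24.

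Of 8 genes for the ternary complex, other IGFBP proteases and their inhibitors 5 were tested. PAPPA2 had 5 and 9 counts in untreated Surv-GFP and 162 and 153 with TMZ, and 3 and 2 counts in untreated SurvNESmut-GFP and 76 and 57 with TMZ. The ratio of TMZ to untreated was 22.8 in Surv-GFP (95% exact interval from 13.4 to 42.1) and 29.4 in SurvNESmut-GFP (from 12.3 to 92.0). Unlike the values of PAPPA, those of PAPPA2 gave no difference of TMZ effects past the threshold (0.32 ± 0.64 on the log2 scale, edgeR adjusted p = 0.74), with a wide error. ADAM9, which has been linked to IGFBP cleavage, rose in Surv-GFP (0.29 ± 0.05, edgeR adjusted p = 0.000146), and ADAM12, a protease of IGFBP3 and IGFBP5, fell there (-0.46 ± 0.07, adjusted p = 5.7e-05). In SurvNESmut-GFP neither passed the threshold.

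Of the mRNA-binding proteins named for IGF2, IGF2BP2 rose (0.61 ± 0.05) and IGF2BP3 fell (-0.44 ± 0.07) with TMZ in Surv-GFP, and both differed from SurvNESmut-GFP (edgeR adjusted p = 1.08e-05 and 0.00101 for the difference of effects). Of 12 further genes whose proteins hold an IGFBP-type domain 5 were tested. NOV (CCN3) was at 3.47 and 2.70 CPM in untreated Surv-GFP and 5.51 and 4.94 CPM with TMZ, against 8.68 and 8.45 CPM untreated and 5.49 and 5.36 CPM with TMZ in SurvNESmut-GFP. Its difference of effects was -1.41 ± 0.23 (edgeR adjusted p = 0.000134), with a rise in one clone and a fall in the other. CYR61 (CCN1) rose in SurvNESmut-GFP (0.65 ± 0.12, edgeR adjusted p = 0.000461, and 0.0856 with a robust prior). In Surv-GFP it was at -0.16 ± 0.13, with -0.40 without untreated b or without TMZ b, 0.13 without untreated a and 0.02 without TMZ a, so that its direction there rested on single libraries. CTGF (CCN2) and CRIM1 differed with TMZ by at most 0.35 on the log2 scale in either clone.

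**Figure D5:**
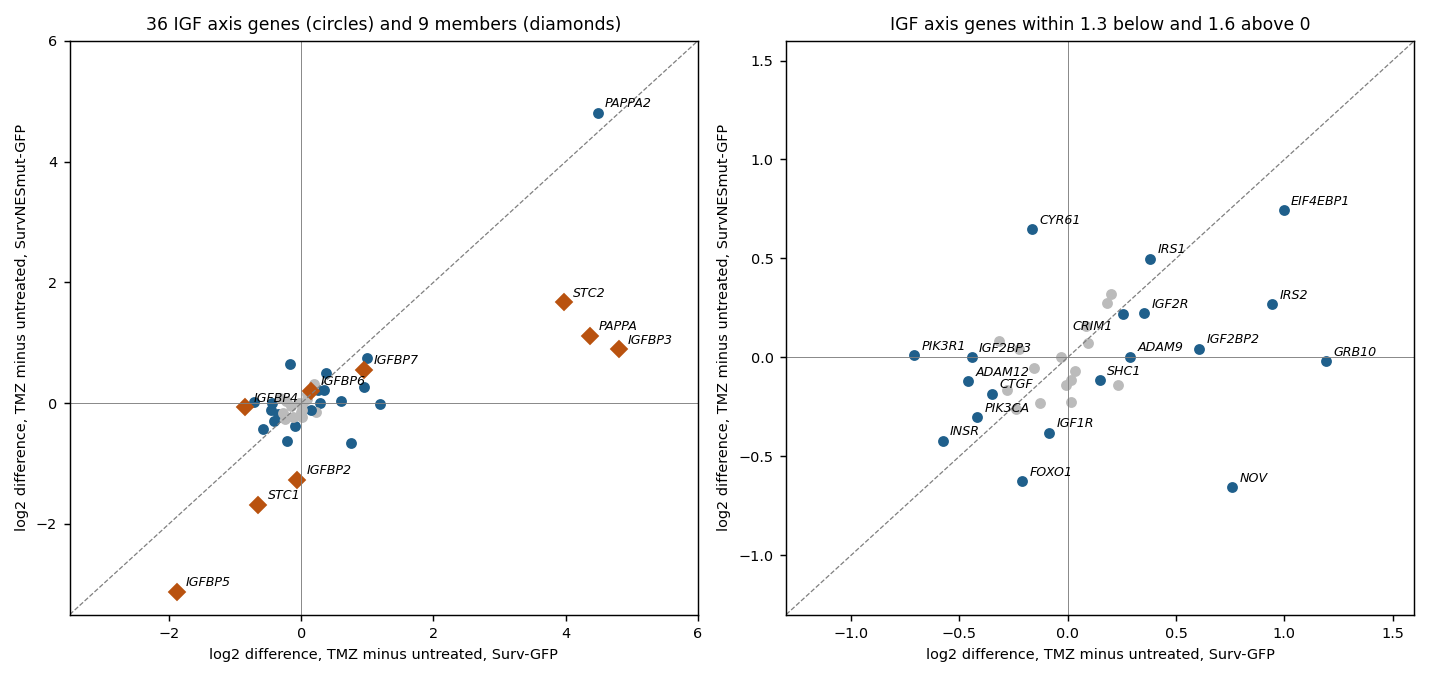
Difference between TMZ and untreated libraries on the log2 scale in Surv-GFP (x axis) and SurvNESmut-GFP (y axis) for 36 IGF axis genes (circles; blue where named by rule) and 9 members (diamonds), with equal differences on the dashed line. The right panel enlarges the axis genes other than PAPPA2; GRB10 and IRS2 lie to the right of the line, and PAPPA2 is near it in the left panel.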

How the data were processed

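RNA from 2 stable LN229 clones, with or without TMZ, was read by the authors on Illumina sequencers. The deposited counts are whole reads by gene symbol without normalization, over 26364 genes. A further 2 rows, for reads without a feature or ambiguous between features, held 12.5% to 15.5% of each library and were left out. The submitters' processing notes name STAR 2.5.0b, Cufflinks 2.2.1 and edgeR; for the counting program, annotation, strand setting and build, nothing was given in the sources used here. In 5 further tables the authors give log2 fold changes, mean log2 CPM, F scores and p-values of their comparisons, which were not used.

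Groups came from the sample labels. The fit used edgeR 4.0.16 and limma 3.58.1 under R 4.3.3, with TMM factors, edgeR's filter by group, which left 14201 genes, and a quasi-likelihood test in 1 model of 4 group means over 8 libraries, with Benjamini-Hochberg adjustment over all tested genes. Alternatives included DESeq2 1.42.0, other scalings and filters, and leaving out each library. The members and lists were chosen with earlier results of these data known. Named genes were all members, up to 4 axis genes per role with the largest TMZ difference among those past the threshold with separate letters, and the 3 nearest profiles of the 3 members with the widest span. Profiles used a prior count of 2. Lengths are those of GENCODE 29. Intervals and limits (3 counts) cover counting error only.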

Additional observations from a re-analysis of the deposited data

Results flagged for a closer look

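For 7 of the 9 tested members, the TMZ effect in SurvNESmut-GFP differed from that in Surv-GFP by the interaction contrast of the model over all genes. In that contrast 20.2% of all tested genes were lower and 16.6% higher. As log2 differences of effects (SurvNESmut-GFP minus Surv-GFP), the 7 members were IGFBP3 -3.92, PAPPA -3.24, STC2 -2.31, IGFBP5 -1.24, STC1 -1.04, IGFBP7 -0.41 and IGFBP4 0.78. The list was made with these contrasts known, so the values are a description. The IGFBP5 difference was -1.96 without SurvNESmut TMZ b and -0.76 without SurvNESmut TMZ a, and it was not past the threshold in DESeq2 or with a robust prior. The STC1 difference was not past the threshold with a robust prior or without Surv-GFP TMZ a. Of the other 5, none lost its call under any alternative run.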

How the results depend on the processing

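Each group holds 2 libraries of 1 clone, so the spread between letters sets what could be seen, and IGFBP2 in SurvNESmut-GFP (2 to 6 counts a library) and IGFBP1 (0 to 6) were limited by depth. Of 800 alternative values for the tested members, 766 kept their direction and their side of the threshold, 28 dropped below it and 1 passed it. The other 5 had another sign, 4 of them not called in either fit (IGFBP2 with TMZ in Surv-GFP, IGFBP4 in SurvNESmut-GFP, the IGFBP6 difference of effects, and IGFBP5 between the TMZ groups without Surv-GFP TMZ a). The called one was IGFBP5 between the TMZ groups, -0.61 on the log2 scale without SurvNESmut TMZ b and 0.59 without SurvNESmut TMZ a. The 28 concerned IGFBP6 (TMZ in either clone), STC1 (TMZ in Surv-GFP, difference of effects), IGFBP5 (difference of effects) and PAPPA (TMZ groups). Of 1060 values for the named axis genes, 987 kept direction and side, 39 dropped below the threshold and 13 passed it. A further 21, for 7 results not called in either fit, had another sign: CYR61 with TMZ in Surv-GFP, GRB10, PIK3R1, ADAM9 and IGF2BP3 in SurvNESmut-GFP, and the PAPPA2 and CRIM1 differences of effects. Leaving out 1 library, the axis genes lower with TMZ in SurvNESmut-GFP numbered 6 to 10 and those with a negative difference of effects 6 to 12, 6 being without SurvNESmut untreated a and without Surv-GFP TMZ b; fewer libraries entered those fits.

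With the letter as a replicate block, 4186 genes were higher and 4017 lower with TMZ in Surv-GFP (4271 and 4100 without the block) and 2569 and 2610 in SurvNESmut-GFP (2648 and 2719 without it), and the counts of members called were equal in all 5 comparisons. Same letters did not deviate together within either clone (r = -0.194 in Surv-GFP and -0.0903 in SurvNESmut-GFP over 10311 genes). Between the clones r was 0.16 for the TMZ groups, 0.0799 for the untreated groups and -0.16 and -0.0642 for unlike groups, so the letters were not taken as pairs. With the letters of both TMZ groups crossed, an alternative chosen after seeing the data, 4364 and 4192 genes were called in Surv-GFP and 2801 and 2901 in SurvNESmut-GFP. DESeq2 called 3417 and 3522, and 1858 and 2056.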
